A study of Mus musculus with 69 samples.

Results

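Aminoacyl-tRNA synthetases are the enzymes that attach each amino acid to its tRNA, and 39 genes of this family and its scaffold proteins were followed in mouse T cells that lack STAT5A or STAT5B. They were taken by name from the 24309 genes that all count tables share, with earlier results of these data known. They comprise 23 genes of the cytosolic set and 16 of the mitochondrial set. The cytosolic set holds 8 enzymes of the multisynthetase complex, its 3 scaffold proteins and 12 enzymes outside the complex. All 39 passed the filter on low counts in every comparison.

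The RNA-seq libraries came from wild-type mice (WT, Stat5a+/+ Stat5b+/+), STAT5A-deficient mice with a single Stat5b allele (AAB, Stat5a-/- Stat5b+/-) and STAT5B-deficient mice with a single Stat5a allele (BBA, Stat5a+/- Stat5b-/-). Naive (Tnv, CD44 low CD62L high), memory (Tcm, CD44 high CD62L high) and effector (Tem, CD44 high CD62L low) CD8+ cells were sorted from pooled lymph nodes and spleens of adult mice of both sexes. They were profiled without cytokine (NC) or after 12 to 16 h with IL-15 or, for Tnv and Tcm, IL-7, which gave 48 libraries with n = 2 for each genotype in 8 conditions. A further 15 libraries held naive CD4+ cells without cytokine or with IL-7 (n = 2 or 3), and 4 held AAB cells labelled as transduced CD8+ T cells, with constitutively active STAT5A or empty vector (n = 2 each). The alleles are germline, so every tissue of the donor lacked them. The labels describe the NC cells as cultured and the methods describe them as taken directly ex vivo, so the effect of a cytokine and that of culture cannot be told apart.

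A charged tRNA is the substrate that the ribosome draws on at each codon, and the enzymes are therefore counted among the housekeeping genes of protein synthesis. Mammalian cells use separate nuclear genes, with a 2 in their symbol, for most but not all of the enzymes that work inside mitochondria. The mitochondrial set here holds no glycine or lysine enzyme, and Gars and Kars were counted in the cytosolic set only. In the cytosol several synthetases and 3 auxiliary proteins, AIMP1, AIMP2 and AIMP3 (the product of Eef1e1), form one large particle. Transcription of many cytosolic synthetases is known to rise through ATF4 when amino acids are short, and Wars, the tryptophan enzyme, is also known as an interferon-induced gene. IL-7 and IL-15 signal through the common gamma chain to JAK1 and JAK3, which activate STAT5A and STAT5B.

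Promoter stretches of members are printed to show where letters read by these factors lie. RefSeq promoter entries (GRCm38.p6, 250 bases before to 50 after the start) matched 30 of the 39 members, 29 by symbol and Mars by the newer symbol Mars1. Both strands were searched for TGATGNAAT (an ATF4 composite site), TTCNNNGAA (a STAT site) and CACGTG (an E-box, read by MYC and MAX among other factors), none of which overlaps another in the stretches shown. The ATF4 letters stood in 3 of the 30 windows, Aars, Gars and Iars, against 1.08% of the windows of 27025 symbols. STAT letters stood in 4, Aars, Eef1e1, Kars and Nars2, against 9.55%, and the E-box in 5, Aars, Ears2, Farsb, Iars and Tars, against 8.09%. A match describes letters and does not show that a factor binds. Each line gives 60 bases, 5′ to 3′ on the strand of the gene, with the matched letters in capitals. The promoters of Aars, on the plus strand at chr8:111033703-111033762, Gars, on the plus strand at chr6:55037944-55038003, and Iars, on the plus strand at chr13:49682090-49682149, hold the ATF4 letters as their reverse complement. That of Aars also holds a STAT match in its last 9 bases.
Aars: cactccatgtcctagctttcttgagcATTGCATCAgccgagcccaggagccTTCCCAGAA
Gars: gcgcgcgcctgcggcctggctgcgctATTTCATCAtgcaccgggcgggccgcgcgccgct
Iars: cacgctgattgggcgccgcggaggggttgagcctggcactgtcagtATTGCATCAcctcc

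STAT letters are also shown for Kars, on the minus strand at chr8:112011335-112011394, Eef1e1, on the minus strand at chr13:38659207-38659266, and Nars2, on the plus strand at chr7:96951354-96951413. The match of Kars ended at the base before the first transcribed one, while those of Eef1e1 and Nars2 began 212 and 147 bases before it. Farsb, on the minus strand at chr1:78488904-78488963, is shown for its E-box.
Kars: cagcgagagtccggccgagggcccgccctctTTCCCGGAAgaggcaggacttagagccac
Eef1e1: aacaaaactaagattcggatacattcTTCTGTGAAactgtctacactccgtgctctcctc
Nars2: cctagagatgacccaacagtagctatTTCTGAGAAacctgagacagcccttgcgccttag
Farsb: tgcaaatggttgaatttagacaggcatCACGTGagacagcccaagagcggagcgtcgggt

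Levels are CPM, counts divided by a library total that was scaled by TMM, a normalization that equalizes the bulk of the genes between libraries. A gene was called when edgeR's quasi-likelihood test gave a Benjamini-Hochberg adjusted p under 0.05 over all genes tested and a change of more than 1.5-fold. Depth ran from 5926139 to 25612758 counts on genes in the CD8+ libraries, and Stat5a lay at 0.970 to 4.91 CPM in AAB against 32.7 to 107 CPM in WT CD8+ cells. Stat5b lay at 49.1 to 94.1 CPM in BBA, 78.8 to 141 CPM in AAB and 165 to 353 CPM in WT CD8+ cells, so that BBA, labelled Stat5b-/-, was below WT but overlapped AAB. The counts do not show from which exons the reads in BBA came. The study's methods call the replicates biological, with several mice per group, and the labels do not tie a library to an animal. In bulk libraries, fewer cells of a type and less RNA per cell cannot be told apart. Xist lay at 2.21 and 5.37 CPM in the WT Tnv libraries with IL-7 and at 937 and 1062 CPM in those without cytokine, and the Tcm libraries with IL-7 mixed both kinds. The libraries of 1 lineage thus differed in sex between some conditions.

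In WT Tcm with IL-15, divided by exon length, the cytosolic set spanned 11.5 (Cars) to 119 (Vars) CPM per kb with a median of 42.8. Vars, the valine enzyme, led the cytosolic genes, followed by Kars, the lysine enzyme, at 86.7 ± 5.10 and Gars, the glycine enzyme, at 68.7 ± 3.83 CPM per kb (SD, n = 2). Kars and Gars were further apart than their SDs. The mitochondrial genes other than Lars2 spanned 2.16 (Mars2) to 21.0 (Cars2) CPM per kb with a median of 8.59. Lars2, the mitochondrial leucine enzyme, stood at 64.0 ± 50.4 CPM per kb (SD, n = 2). Its counts varied from 81.5 to 2449 CPM over the CD8+ libraries, also between replicates of a group, and it was not called between genotypes in the fits reported here. In some of them it was called with a replicate block or without the low-count filter.

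The cytosolic synthetases were lower in STAT5B-deficient than in WT Tcm cultured with IL-15. Between WT and BBA 19 of the 39 genes were called, 17 of the 23 cytosolic and 2 of the 16 mitochondrial, and every called gene was higher in WT. The background was high, since 23.5% of the 9856 genes tested were called in that comparison. In log2 units WT exceeded BBA by a median of 0.71 in the cytosolic set, 0.33 in the mitochondrial set and −0.00 over all genes tested. The value was positive for 23 of 23 cytosolic and 13 of 16 mitochondrial genes. Both WT libraries lay above both BBA libraries for 23 of 23 cytosolic and 12 of 16 mitochondrial genes, as for 38% of all genes tested. The 4 others were Cars2, Hars2, Lars2 and Mars2.

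The mean log2(CPM + 1) of the cytosolic set was 6.76 ± 0.06 in WT, 6.38 ± 0.03 in AAB and 5.99 ± 0.05 in BBA Tcm with IL-15 (SD, n = 2 each). The 3 genotypes did not overlap. The summed level of the 23 genes was 2963 ± 55.0 CPM in WT, 2260 ± 88.4 CPM in AAB and 1743 ± 12.8 CPM in BBA (SD, n = 2 each). The mitochondrial set stood at 5.13 ± 0.02, 5.03 ± 0.06 and 4.86 ± 0.05 in the same order, a smaller step. These set means are given without a test.

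**Figure D1:**
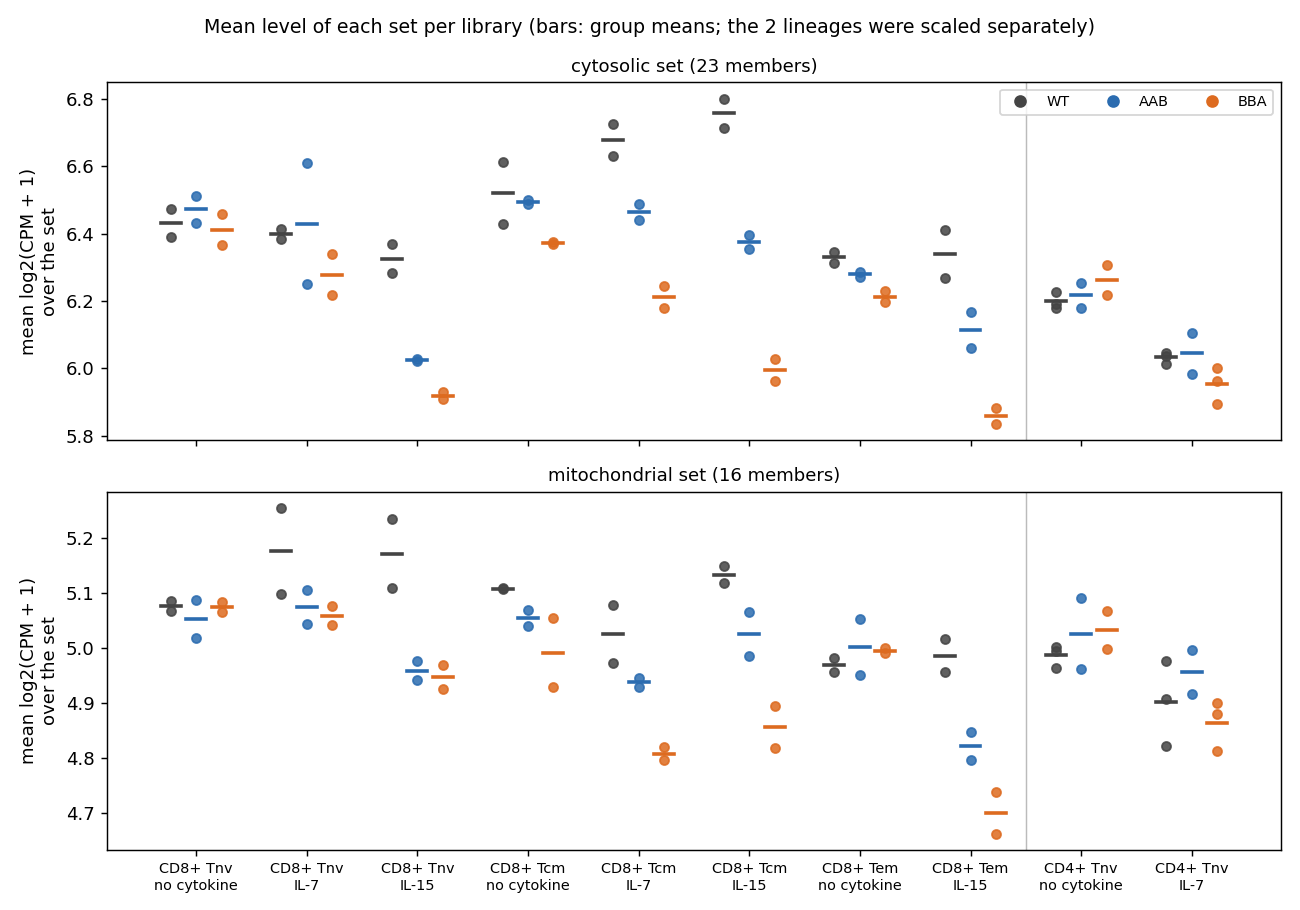
Mean log2(CPM + 1) of the cytosolic and the mitochondrial genes (vertical axis) in each library of 10 conditions (horizontal axis), coloured by genotype, with bars for group means; CD8+ and CD4+ libraries were scaled separately. The genotypes separate most in Tcm with IL-15, where the cytosolic mean falls from 6.76 in WT to 5.99 in BBA, and lie close together without cytokine.

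The 2 largest differences among the 39 genes were in scaffold genes of the complex. Aimp2, which holds the particle together, stood at 50.6 and 48.3 CPM in WT, 30.2 and 31.9 CPM in AAB and 15.9 and 18.0 CPM in BBA Tcm with IL-15. The 3 genotypes did not overlap, and WT exceeded BBA by 1.51 on the log2 scale (SE 0.11, edgeR adjusted p = 0.00024), or 2.86-fold. Eef1e1, which encodes AIMP3, stood at 44.2 and 35.6 CPM in WT, 28.2 and 23 CPM in AAB and 18.4 and 13.3 CPM in BBA. It differed by 1.31 between WT and BBA (SE 0.20, edgeR adjusted p = 0.0027), again without overlap of the genotypes. Aimp1, the third scaffold gene, stood at 55.4 and 54.0 CPM in WT and 49.4 and 45.7 CPM in BBA and did not pass the test (log2 fold change 0.18, SE 0.09).

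Among the 8 enzymes of the complex 6 were called. Rars, the arginine enzyme, stood at 97.5 and 83.1 CPM in WT, 67.8 and 63.0 CPM in AAB and 42.3 and 42.6 CPM in BBA (log2 fold change of WT over BBA 1.06, SE 0.11, edgeR adjusted p = 0.00070). Eprs, which charges both glutamate and proline tRNAs, stood at 231 and 205 CPM in WT, 154 and 155 CPM in AAB and 115 and 106 CPM in BBA (0.95, SE 0.10, edgeR adjusted p = 0.00069). Both genes fell stepwise from WT through AAB to BBA. Kars, the lysine enzyme with STAT letters beside its start, stood at 203 and 187 CPM in WT, 135 and 142 CPM in AAB and 106 and 99.1 CPM in BBA (0.90, SE 0.09). Iars, the isoleucine enzyme with the ATF4 letters, stood at 125 and 117 CPM, 75.6 and 85.5 CPM, and 68.4 and 63.2 CPM in that order of genotypes (0.85, SE 0.10). Mars, for methionine, and Lars, for leucine, differed by 0.86 (SE 0.08) and 0.68 (SE 0.09). Dars, the aspartate enzyme, had an adjusted p of 0.017 in edgeR but a 1.43-fold change (107 and 94.0 CPM in WT, 75.7 and 62.1 CPM in BBA), and so was not called. Qars, the glutamine enzyme, had the lowest value of the complex's enzymes at 0.22 (SE 0.09), with 157 and 152 CPM in WT and 126 and 133 CPM in BBA.

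**Figure D2:**
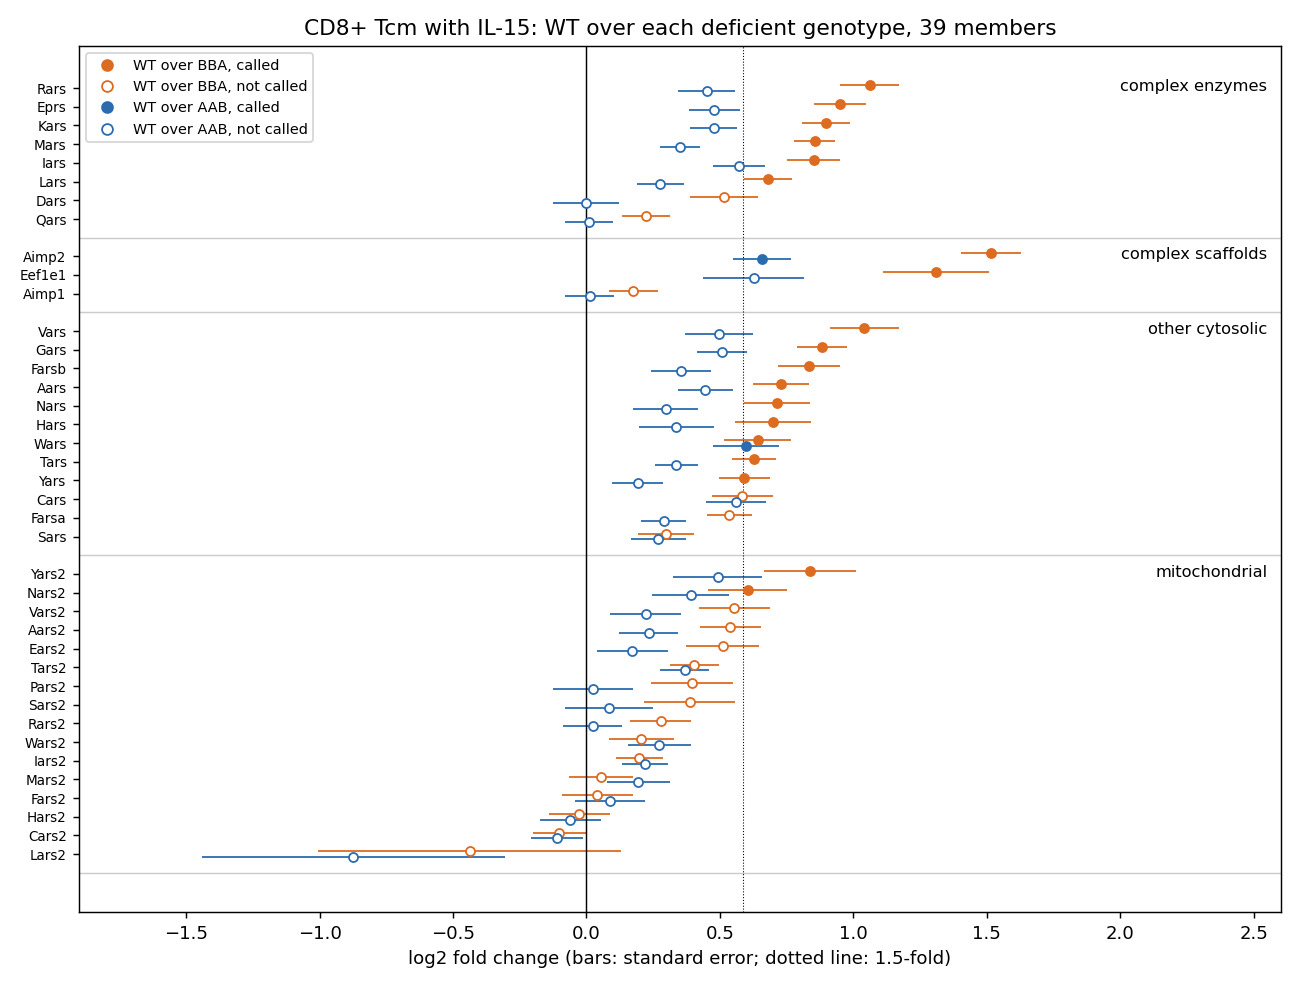
Log2 fold change with SE (horizontal axis) of each of the 39 genes (vertical axis) in Tcm with IL-15, for WT over BBA (orange) and WT over AAB (blue); filled points were called and dotted lines mark 1.5-fold. Aimp2 leads at 1.51, the cytosolic genes sit right of 0 in WT over BBA, and Cars2, Hars2 and Lars2 sit at or left of 0.

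Of the 12 cytosolic enzymes outside the complex 9 were called. Vars, the valine enzyme, stood at 452 and 533 CPM in WT, 318 and 374 CPM in AAB and 216 and 253 CPM in BBA (log2 fold change of WT over BBA 1.04, SE 0.13, edgeR adjusted p = 0.0013), without overlap. Gars, the glycine enzyme, stood at 170 and 157 CPM in WT, 108 and 120 CPM in AAB and 84.6 and 89.2 CPM in BBA (0.88, SE 0.10). Farsb, a subunit of the phenylalanine enzyme, stood at 88.7 and 72.9 CPM in WT, 63.7 and 61.5 CPM in AAB and 45.3 and 43.7 CPM in BBA (0.83, SE 0.12). In each of these genes AAB lay between WT and BBA. Its partner subunit Farsa differed by 0.54 (edgeR adjusted p = 0.0032), a 1.45-fold change below the limit. Aars (alanine), Nars (asparagine), Hars (histidine), Wars (tryptophan), Tars (threonine) and Yars (tyrosine) differed by 0.73, 0.71, 0.70, 0.64, 0.63 and 0.59. Cars, the cysteine enzyme, lay just under the 1.5-fold limit with a log2 fold change of 0.58 (edgeR adjusted p = 0.0072). Sars, the serine enzyme, had 0.30 and 204 and 207 CPM in WT against 149 and 178 CPM in BBA.

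Among the mitochondrial enzymes Yars2, for tyrosine, stood at 21.5 and 26.6 CPM in WT, 17.4 and 16.4 CPM in AAB and 11.5 and 14.7 CPM in BBA Tcm with IL-15 (log2 fold change of WT over BBA 0.84, SE 0.17, edgeR adjusted p = 0.0087). Nars2, for asparagine, stood at 21.5 and 24.7 CPM, 18.8 and 16.1 CPM, and 15.5 and 14.3 CPM (0.60, SE 0.15, edgeR adjusted p = 0.017). Both were ordered WT, AAB, BBA without overlap. Vars2, Aars2 and Ears2, the mitochondrial valine, alanine and glutamate enzymes, had 0.55, 0.54 and 0.51 and adjusted p-values of 0.016, 0.0098 and 0.023 in edgeR, but less than 1.5-fold change. Cars2, the mitochondrial cysteine enzyme, stood at 39.5 and 40.2 CPM in WT, 41.1 and 44.1 CPM in AAB and 40.3 and 43.5 CPM in BBA. Hars2, for histidine, stood at 37.5 and 41.4 CPM, 43.6 and 37.8 CPM, and 40.6 and 38.2 CPM. In both the genotypes overlapped or nearly touched, with log2 fold changes of WT over BBA of −0.10 (SE 0.10) and −0.03 (SE 0.12). Of the 19 calls, those of Hars, Nars, Wars, Yars and Nars2 were lost without BBA replicate 2. Hars and Yars were also lost without WT replicate 1, Yars without BBA replicate 1 and Nars2 without WT replicate 2, all with the direction kept.

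The same libraries differed in other ways beside the synthetases. The 6 B cell markers, none called and all tested, summed to 117 and 221 CPM in WT, 91.7 and 245 CPM in AAB and 246 and 504 CPM in BBA. None was at 0. Of 6 myeloid markers 2 were tested and both were higher in BBA, with sums of 13.0 and 10.3 CPM in WT, 13.5 and 28.7 CPM in AAB and 57.7 and 31.8 CPM in BBA. The 4 proliferation markers summed to 113 and 104 CPM in WT, 65.6 and 128 CPM in AAB and 76.1 and 44.5 CPM in BBA, and of the 2 tested neither was called. The 5 memory and effector markers summed to 1726 and 1666 CPM in WT, 1420 and 1475 CPM in AAB and 1028 and 851 CPM in BBA, ordered like the cytosolic set. Naive markers summed to 1743 and 1781 CPM in WT, 1903 and 1895 CPM in AAB and 2119 and 2255 CPM in BBA. CD8+ markers summed to 2800 and 2476 CPM in WT, 2965 and 2658 CPM in AAB and 2172 and 2032 CPM in BBA. The 3 T cell markers ranged from 996 to 1169 CPM and the erythroid markers stayed near 0. The WT libraries held 17683997 and 16480206 counts and the BBA libraries 9469916 and 12214284. The part of these differences in the synthetase values was not tested.

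Between WT and STAT5A-deficient (AAB) Tcm with IL-15, 2 of the 39 genes were called, both higher in WT, against 4.45% of all genes tested. These were Aimp2, with a log2 fold change of 0.66 (SE 0.11, edgeR adjusted p = 0.018), and Wars, with 0.60 (SE 0.12, edgeR adjusted p = 0.034). Wars stood at 129 and 137 CPM in WT, 76.2 and 97.6 CPM in AAB and 86.4 and 80.6 CPM in BBA, so that AAB and BBA overlapped. The median was 0.35 in the cytosolic set, positive for 22 of 23 genes, and 0.18 in the mitochondrial set, against 0.01 over all genes. Eef1e1 had 0.63 and an adjusted p of 0.094 in edgeR, and was the third gene called with the replicate block. Both calls rested on single libraries, since 0 or 1 remained when any of the WT or AAB libraries was left out. The WT libraries are shared with the comparison to BBA.

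In the direct comparison of the deficient genotypes in Tcm with IL-15, 2 of the 39 genes were called, both higher in AAB than in BBA, against 5.84% of all genes tested. Aimp2 differed by 0.86 (SE 0.11, edgeR adjusted p = 0.011) and Rars by 0.61 (SE 0.11, edgeR adjusted p = 0.023). Under a replicate block, which the correlation of same-numbered libraries allows here, 3 were called with Eef1e1 added. The cytosolic median was 0.40, positive for 23 of 23 genes, and the mitochondrial median 0.23, against −0.00 over all genes. In strict order, both WT above both AAB above both BBA libraries, lay 17 of 23 cytosolic and 5 of 16 mitochondrial genes, as did 17.1% of all genes tested. The cytosolic genes outside this order were Qars, Dars, Aimp1, Cars, Sars and Wars. With 0 or 1 calls left when any AAB or BBA library was dropped, this comparison too rests on each of its 4 libraries.

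Without cytokine no member was called between WT and either deficient genotype of CD8+ cells. In Tcm NC, Aimp2 stood at 40.7 and 32.2 CPM in WT, 36.3 and 33.0 CPM in AAB and 30.5 and 30.6 CPM in BBA, and Vars at 337 and 463 CPM, 366 and 437 CPM, and 349 and 440 CPM. The genotypes overlapped for Vars, and the spread between WT replicates of Aimp2 was as large as the step between genotypes. For WT over BBA edgeR and DESeq2 called 0 of the 39 genes in Tnv, Tcm and Tem NC. Of all genes edgeR called 2.75%, 0.283% and 0.208%. An unadjusted p under 0.05 held for 4, 2 and 0 members and for 2211 of 9750, 999 of 10265 and 1083 of 10082 genes. The cytosolic medians were 0.06, 0.12 and 0.09 and the mitochondrial ones 0.01, 0.11 and 0.04. For WT over AAB 0 were called as well by both tools, against 0.164%, 0.039% and 0.0198% of all genes. Here 2, 0 and 1 members had an unadjusted p under 0.05, as had 765 of 9750, 394 of 10265 and 807 of 10082 genes.

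**Figure D3:**
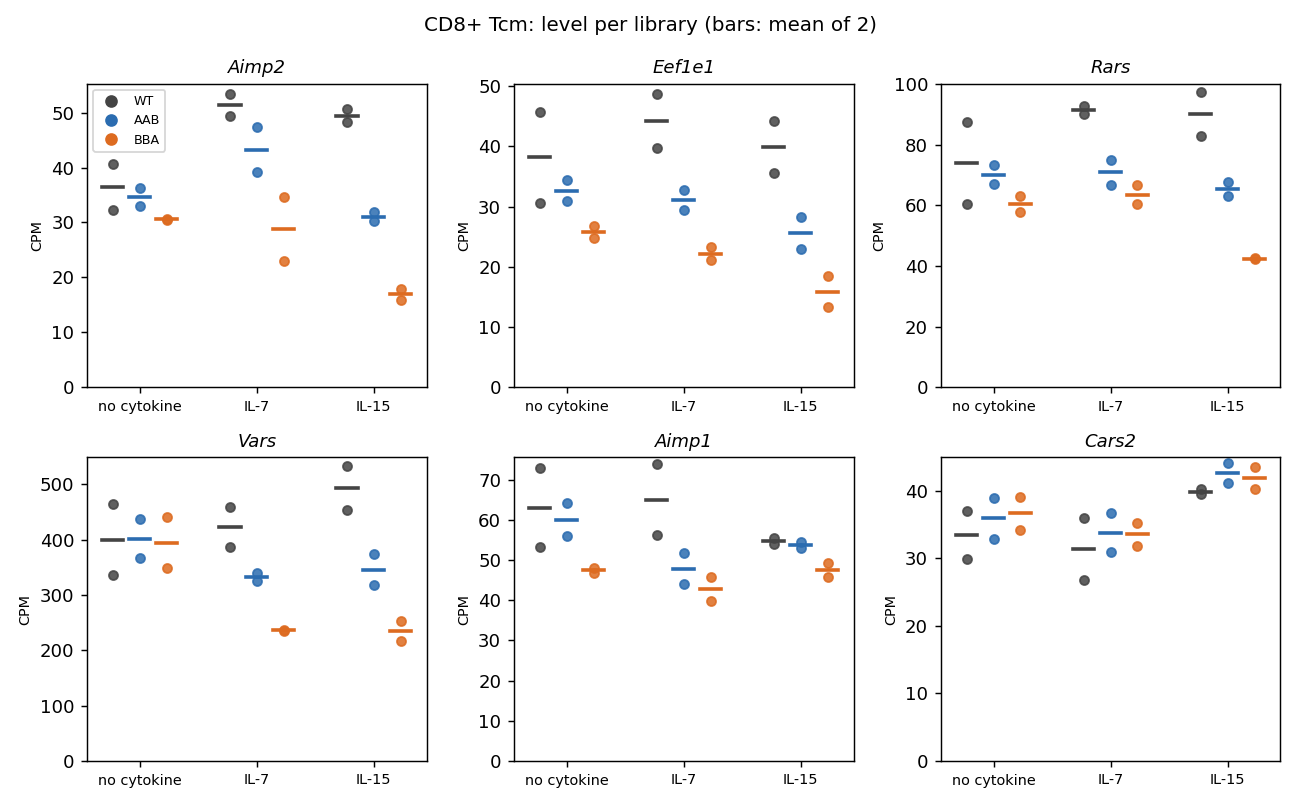
CPM (vertical axis) of Aimp2, Eef1e1, Rars, Vars, Aimp1 and Cars2 in each Tcm library, arranged by culture (NC, IL-7, IL-15; horizontal axis), coloured by genotype. With IL-15 Aimp2 separates into 48.3 to 50.6 CPM in WT, 30.2 to 31.9 CPM in AAB and 15.9 to 18.0 CPM in BBA, while Cars2 stays at 39.5 to 44.1 CPM in all 3.

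The genotype difference of Tcm with IL-15 was larger than that of Tcm NC for 9 genes, tested as an interaction over 12 libraries, against 7.64% of all genes. All 9 were cytosolic: Aimp2, Vars, Iars, Cars, Aars, Gars, Eprs, Mars and Kars. Iars, for example, stood at 85.2 and 85.6 CPM in WT and 91.4 and 91.0 CPM in BBA NC, and at 125 and 117 CPM in WT and 68.4 and 63.2 CPM in BBA with IL-15, an interaction of 0.96 (SE 0.13, edgeR adjusted p = 0.0038). Aimp2 had 1.28 (SE 0.18, edgeR adjusted p = 0.0036). Its genotypes were thus near each other without cytokine and apart with IL-15. The interaction had a median of 0.64 in the cytosolic set, positive for 22 of 23, of 0.12 in the mitochondrial set and of −0.03 over all genes. With the replicate block 14 were called, adding Rars, Eef1e1, Farsb, Hars and Nars. Leaving out WT replicate 1 or BBA replicate 2 with IL-15 left 4.

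The fit of 12 libraries also gave the change from NC to IL-15 within each genotype of Tcm. In WT a single gene rose, Wars, from 76.8 and 78.3 CPM to 129 and 137 CPM (log2 fold change 0.79, SE 0.12, edgeR adjusted p = 0.0026), against 8.62% of all genes called. The cytosolic median was 0.27 in WT, positive for 21 of 23. In BBA 5 genes fell, against 9.11% of all genes called: Aimp2 (−0.82), Ears2 (−0.74), Vars (−0.72), Cars (−0.63) and Yars2 (−0.61). Aimp2 went from 30.5 and 30.6 CPM to 15.9 and 18.0 CPM. The cytosolic median in BBA was −0.38, positive for 4 of 23. The replicate block added Eef1e1 to these 5. When single BBA libraries were left out 2 to 4 calls remained. In AAB the cytosolic median was −0.11, and Pars2, the mitochondrial proline enzyme, rose from 8.75 and 8.01 CPM to 14.3 and 13.8 CPM (0.77, SE 0.17, edgeR adjusted p = 0.034), against 3.71% of all genes called. That call was lost when any of the 4 AAB libraries was left out.

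In naive cells with IL-15 a single member was called. Aimp2 stood at 35.4 and 29.4 CPM in WT, 21.7 and 20.2 CPM in AAB and 16.3 and 16.2 CPM in BBA Tnv, without overlap, and differed by 0.96 between WT and BBA (SE 0.17, edgeR adjusted p = 0.013). It was the only one of the 39 genes called there, against 9.6% of all genes tested. The cytosolic median was 0.36, positive for 22 of 23, and the mitochondrial median 0.18, against 0.01 over all genes. Ears2, the mitochondrial glutamate enzyme, stood at 17.3 and 16.1 CPM in WT and 9.47 and 6.64 CPM in BBA and missed the threshold (1.02, SE 0.27, edgeR adjusted p = 0.054). WT replicate 2 of this condition carried 237 CPM of Cd4, a marker of another lineage, and without it 2 genes were called, while 0 were called without WT or BBA replicate 1 and 3 without BBA replicate 2. For WT over AAB 0 were called by edgeR and DESeq2, against 0.908% of all genes. An unadjusted p under 0.05 held for 7 members and for 1428 of 10021 genes. The genotype difference of Tcm exceeded that of Tnv with IL-15 for 0 genes in edgeR and 1 in DESeq2 (Kars), with 0.194% of all genes called. In this test 9 members had an unadjusted p under 0.05, as had 1496 of 10321 genes. The cytosolic median of the difference was 0.37. Myeloid markers summed to 8.61 and 13.7 CPM in WT and 88.1 and 41.1 CPM in BBA Tnv with IL-15, and their part was not tested.

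In effector cells with IL-15 a single member was called, lower in BBA than in WT. Vars stood at 302 and 294 CPM in WT, 233 and 262 CPM in AAB and 185 and 185 CPM in BBA Tem, without overlap, and differed by 0.65 between WT and BBA (SE 0.10, edgeR adjusted p = 0.049). The share of all genes called was 1.81%, and the call was lost when any WT or BBA library was left out. With the replicate block, which the correlations allow here, 8 were called: Rars, Aimp2, Eef1e1, Vars, Wars, Aars2, Lars2 and Nars2. Aimp2 stood at 36.0 and 29.1 CPM in WT, 23.3 and 19.6 CPM in AAB and 12.7 and 18.0 CPM in BBA, and Rars at 67.0 and 59.3 CPM, 55.7 and 47.6 CPM, and 37.6 and 34.8 CPM. In both genes every WT library lay above every BBA library. The cytosolic median was 0.40, positive for 23 of 23, and the mitochondrial one 0.21, against −0.02 over all genes. For WT over AAB edgeR called 0 and DESeq2 1 (Wars), against 0.0199% of all genes. An unadjusted p under 0.05 held for 6 members and for 742 of 10034 genes. The 2 CD8+ markers summed to 2730 and 2064 CPM in WT and 1938 and 1552 CPM in BBA Tem with IL-15, and their part was not tested.

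**Figure D4:**
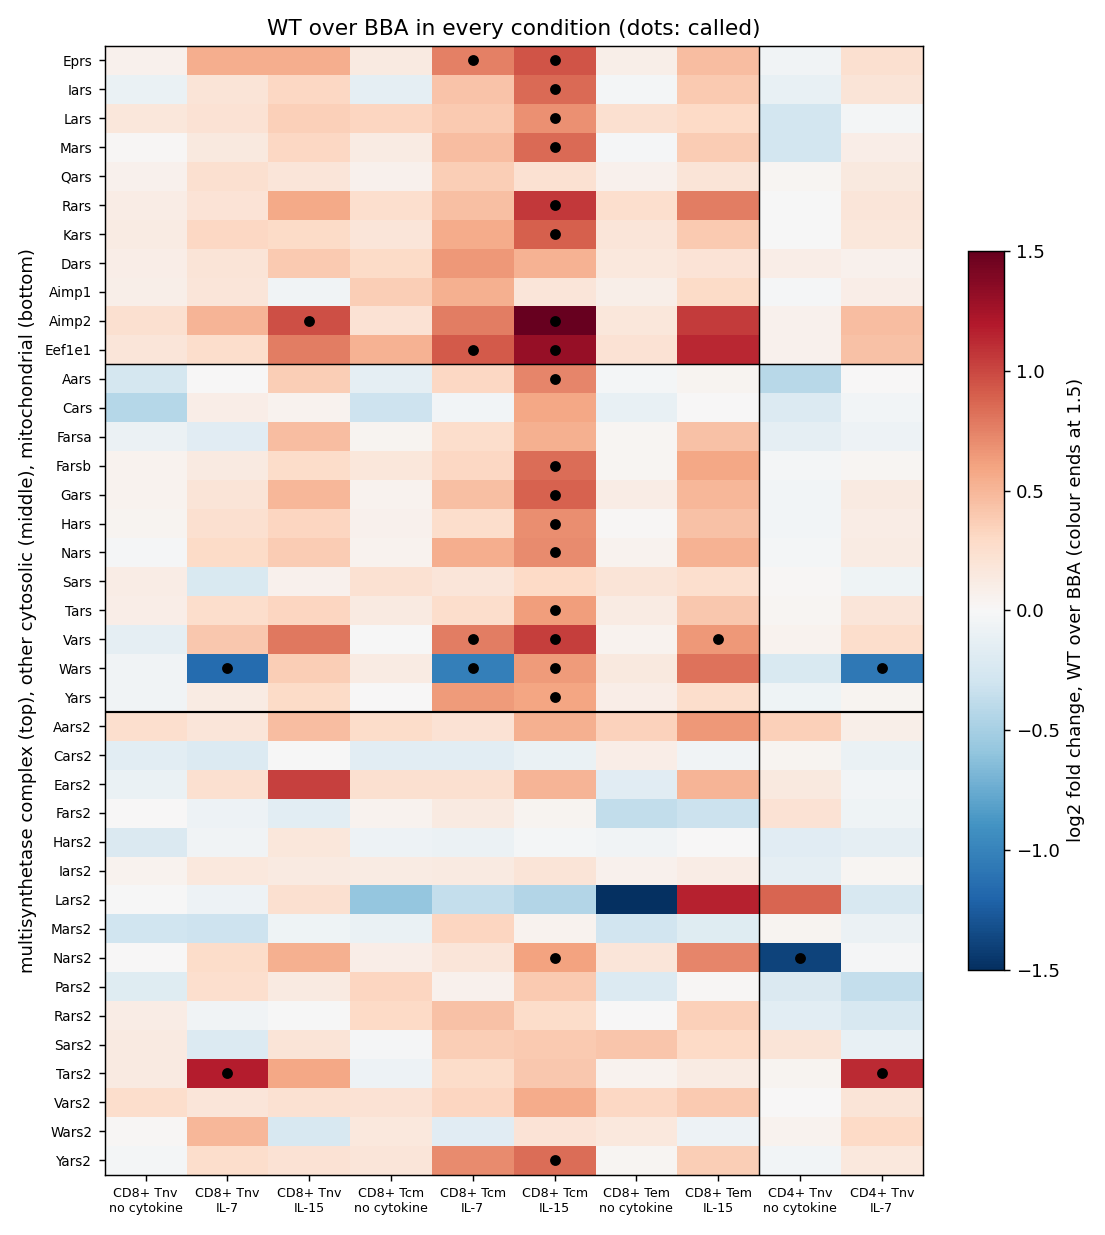
Log2 fold change of WT over BBA (colour, ends at 1.5) of the 39 genes (rows) in 10 conditions (columns), with dots on called values. The column of Tcm with IL-15 holds 19 dots and the CD8+ columns without cytokine hold none. Wars is both negative and called in the 3 IL-7 columns. In the CD4+ column without cytokine Nars2 carries the only dot.

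With IL-7, Wars stood apart from the rest of the cytosolic set. In Tcm with IL-7 Wars was at 96.0 and 96.2 CPM in WT, 129 and 132 CPM in AAB and 179 and 194 CPM in BBA, a log2 fold change of WT over BBA of −1.03 (SE 0.13, edgeR adjusted p = 0.020). The other 3 called genes were higher in WT: Eef1e1 at 0.92 (SE 0.17), Vars at 0.77 (SE 0.14) and Eprs at 0.76 (SE 0.12). Eprs, for instance, stood at 204 and 194 CPM in WT, 146 and 153 CPM in AAB and 113 and 111 CPM in BBA. The 4 calls stand against 3.08% of all genes, and the cytosolic median was 0.46, positive for 21 of 23. Without WT replicate 2, 9 were called, and without either BBA library 0 were. Both WT libraries of this condition had Xist near 0 (2.48 and 2.70 CPM), as had 1 of 2 libraries in AAB and BBA, and its part was not tested. Memory and effector markers summed to 2718 and 2103 CPM in WT and 749 and 931 CPM in BBA, and B cell markers to 111 and 25.5 CPM in WT and 311 and 174 CPM in BBA, whose part was not tested either. Between WT and AAB 0 were called by edgeR and DESeq2, against 0.0589% of all genes. An unadjusted p under 0.05 held for 5 members and for 1155 of 10185 genes.

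Naive CD8+ cells with IL-7 had Wars and Tars2 moving in opposite directions. Wars stood at 127 and 149 CPM in WT, 244 and 175 CPM in AAB and 307 and 319 CPM in BBA Tnv, a log2 fold change of WT over BBA of −1.16 (SE 0.18, edgeR adjusted p = 0.028). Tars2, the mitochondrial threonine enzyme, stood at 171 and 166 CPM in WT, 79.0 and 98.1 CPM in AAB and 70.6 and 81.2 CPM in BBA, a difference of 1.18 (SE 0.14, edgeR adjusted p = 0.014). WT and BBA did not overlap in either gene. These 2 genes stood against 2.69% of all genes called, and the cytosolic median was 0.19. Both calls were lost when any WT or BBA library was left out. The comparison with AAB called 0 genes by edgeR and 1 (Tars2, 0.94) by DESeq2 or with the replicate block, against 0.256% of all genes. Of the members 3 had an unadjusted p under 0.05, as had 976 of 10157 genes. Without AAB replicate 2, 2 were called. Memory and effector markers summed to 261 and 249 CPM in WT and 435 and 369 CPM in BBA Tnv with IL-7, and B cell markers to 19.6 and 10.2 CPM in WT and 61.7 and 38.5 CPM in BBA. Their part in the values was not tested.

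In naive CD4+ cells with IL-7 both genes were called again. Wars stood at 66.3, 76.2 and 74.5 CPM in WT, 116 and 90.1 CPM in AAB and 125, 182 and 147 CPM in BBA (log2 fold change of WT over BBA −1.07, SE 0.14, edgeR adjusted p = 0.0020). Tars2 stood at 174, 198 and 183 CPM in WT, 121 and 142 CPM in AAB and 82.0, 88.6 and 83.9 CPM in BBA (1.12, SE 0.08, edgeR adjusted p = 5.9e-05). In both genes AAB lay between WT and BBA without overlap. They were the 2 called genes, against 5.51% of all genes, and the cytosolic and mitochondrial medians were 0.11 and −0.05. AAB exceeded BBA in Tars2 by 0.63 (SE 0.09, edgeR adjusted p = 0.0072), the only such call against 1.57% of all genes, which was lost without AAB replicate 3. Between WT and AAB 0 were called by edgeR and DESeq2, against 0.637% of all genes. Of the members 5 had an unadjusted p under 0.05, as had 1072 of 9412 genes. In these libraries B cell markers summed to 11.3, 10.8 and 7.09 CPM in WT, 15.3 and 13.7 CPM in AAB and 68.0, 15.6 and 31.5 CPM in BBA, and their part was not tested.

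**Figure D5:**
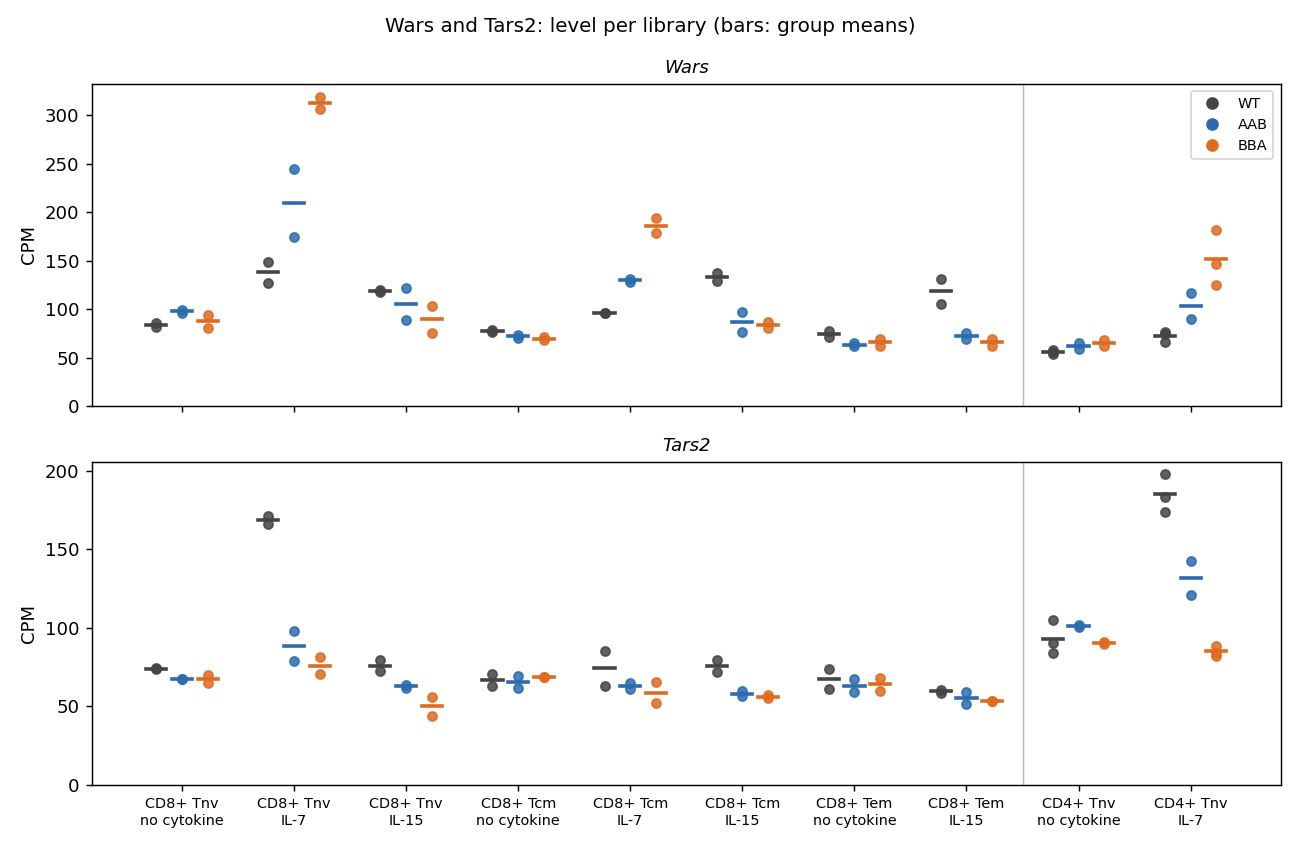
CPM (vertical axis) of Wars and Tars2 in each library of 10 conditions (horizontal axis), coloured by genotype; CD8+ and CD4+ libraries were scaled separately. With IL-7 Wars is highest in BBA (307 and 319 CPM in CD8+ Tnv) and Tars2 highest in WT (171 and 166 CPM), while with IL-15 in Tcm Wars is highest in WT.

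In Tcm, Wars thus differed between WT and BBA in opposite directions with the 2 cytokines. In Tnv with IL-15 it was not called. It stood there at 119 and 118 CPM in WT, 89.4 and 122 CPM in AAB and 75.7 and 104 CPM in BBA. The second of these WT libraries held 237 CPM of Cd4, and its part was not tested. The difference of the genotype effects, a comparison chosen after seeing the data, was 1.65 in Tcm (SE 0.17, edgeR adjusted p = 0.0079; 0.126% of all genes called) and 1.54 in Tnv (SE 0.29, edgeR adjusted p = 0.036; 1.05% of all genes called). In each case Wars was the only one of the 39 genes called. Either call was lost when some single libraries were left out, including both BBA libraries with IL-7. Sex markers summed to 380 and 446 CPM in WT and 458 and 513 CPM in BBA Tnv with IL-7. With IL-15 they summed to 792 and 775 CPM in WT and 617 and 633 CPM in BBA Tnv. The sum adds Xist to Y-linked genes (Ddx3y, Uty, Kdm5d and Eif2s3y), so it does not tell the sex of a library. Xist itself was low in the WT libraries with IL-7 of both Tnv and Tcm, as given above. The part of sex in either Wars difference was not tested. Of 14 listed interferon-induced genes, 11 were tested in Tnv with IL-7, where 6 were called lower in WT than in BBA (median −1.43). In that comparison 2.69% of all genes were called. In CD4+ cells with IL-7, 7 of 10 tested were called lower in WT (median −1.43), against 5.51% of all genes. In Tcm with IL-15 4 of 11 tested were called lower in WT and 1, Bst2, higher (median −0.24), against 23.5% of all genes. Wars was higher in WT there. The part of the interferon response in the Wars values was not tested.

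In CD4+ cells without cytokine a different gene was called. Nars2 stood at 13.6, 13.8 and 16.9 CPM in WT, 29.2 and 22.7 CPM in AAB and 37.3 and 40.6 CPM in BBA, a log2 fold change of WT over BBA of −1.39 (SE 0.15, edgeR adjusted p = 0.0043). It was the only gene called, against 1.13% of all genes, and the genotypes did not overlap. Memory and effector markers summed to 49.9, 54.1 and 75.4 CPM in WT, 57.9 and 66.4 CPM in AAB and 97.9 and 139 CPM in BBA of the same libraries, and their part was not tested. With IL-7 the same gene stood at 19.1, 16.0 and 14.6 CPM in WT, 16.9 and 16.8 CPM in AAB and 14.3, 18.9 and 16.7 CPM in BBA, where the genotypes overlapped. In CD8+ Tcm with IL-15 the direction of Nars2 was the opposite, higher in WT. Whether the lineages differ was not tested, since the tables were scaled separately. Between WT and AAB without cytokine edgeR called 0 and DESeq2 1 (Nars2), against 0.355% of all genes. Of the members 1 had an unadjusted p under 0.05, as had 809 of 10154 genes.

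Between IL-7 and NC in WT naive cells, 5 of the 39 genes were called in CD4+ and 4 in CD8+ Tnv, shares below those of all genes (16.8% and 20.3%). In CD4+ Tnv, Tars2 rose from 90.4, 105 and 84.1 CPM to 174, 198 and 183 CPM (log2 fold change 0.997, SE 0.095, edgeR adjusted p = 9.4e-05), while Ears2 fell from 26.6, 29.6 and 31.4 CPM to 12.8, 14.4 and 10.8 CPM (−1.19, SE 0.13, edgeR adjusted p = 0.00022). Sars2, the mitochondrial serine enzyme, Vars and Dars fell by 0.70, 0.68 and 0.60 on the log2 scale. In CD8+ Tnv, Tars2 rose from 74.5 and 73.5 CPM to 171 and 166 CPM (1.17, SE 0.08, edgeR adjusted p = 0.00034), Wars rose by 0.69, and Sars2 (−0.77) and Nars2 (−0.61) fell. The WT libraries with IL-7 and without cytokine differ in Xist, and its part was not tested. Without NC replicate 2 there were 2 calls and without IL-7 replicate 2 there was 1. The cytosolic median was −0.14 in CD4+ and −0.04 in CD8+ Tnv.

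Between IL-15 and NC 0 of the 39 genes were called in WT Tnv, Tcm and Tem when WT libraries were fitted alone with edgeR, with 11, 7 and 6 at an unadjusted p under 0.05, and DESeq2 called 1 in each (Lars2, Wars and Wars). The shares of all genes called were 6.15%, 0% and 1.53%. An unadjusted p under 0.05 was found for 2880 of 9838, 1311 of 10768 and 1805 of 9665 genes. Between IL-7 and NC in WT Tcm 0 were called by both tools, against 0.381% of all genes. There 2 members had an unadjusted p under 0.05, as had 1264 of 10768 genes. The cytosolic median of the IL-15 change was −0.10 in Tnv, 0.27 in Tcm and 0.01 in Tem. Between cell states of WT NC cells 0 were called by both tools in Tcm over Tnv, Tem over Tnv and Tem over Tcm. Of all genes 2.78%, 8.08% and 1.95% were called. In that order 0, 1 and 5 members had an unadjusted p under 0.05, as had 1428, 1997 and 1344 of 10013 genes. Tem over Tcm had a cytosolic median of −0.17, with 1 of 23 genes positive. Leaving out Tcm replicate 2 gave 1 call there.

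Between active STAT5A and empty vector in AAB cells a single gene was called. Vars stood at 193 and 191 CPM with active STAT5A and 313 and 392 CPM with empty vector, a log2 fold change of −0.87 (SE 0.14, edgeR adjusted p = 0.019), so that it was lower with active STAT5A without overlap. B cell markers moved the same way, with sums of 19.7 and 35.3 CPM against 211 and 174 CPM, and myeloid markers the other way, with 1608 and 1426 CPM against 796 and 673 CPM. Their part in the value of Vars was not tested. The call was lost without replicate 1 of active STAT5A, and 2 were called without replicate 2 of the empty vector. The share of all genes called was 6.63%. The cytosolic median was −0.00 and the mitochondrial −0.19. Aimp2 did not pass the test (0.12, SE 0.16). Although labelled CD8+, these libraries held 1.40 to 3.18 CPM of Cd8a and 1129 to 1460 CPM of Ncr1, an NK cell receptor, so the values are of the libraries labelled as transduced CD8+ T cells.

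Other genes that serve or feed tRNA charging were followed as fixed lists in Tcm with IL-15. Of 29 tested genes of tRNA processing, export and repair, 11 were called, all higher in WT than in BBA, with a median log2 fold change of 0.57. Trmt61a, a tRNA methyltransferase subunit, stood at 45.3 and 46.8 CPM in WT, 23.8 and 27.2 CPM in AAB and 12.8 and 12.3 CPM in BBA (1.84). Nsun2, another tRNA methyltransferase, stood at 224 and 222 CPM, 131 and 136 CPM, and 87.9 and 86.5 CPM (1.33). Both were ordered by genotype without overlap. Pop1 and Rpp38, subunits of RNase P, which trims tRNA precursors, had 1.36 and 1.09. Of 21 genes of RNA polymerase III and its factors, which make tRNA, 6 were called, all higher in WT, with a median of 0.12, among them the subunit genes Polr3d (1.02) and Polr3e (0.96).

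Of 21 tested genes of the amino acid response, 10 were called higher and 1, Pycr1 of proline synthesis (−1.92), lower in WT than in BBA Tcm with IL-15. Their median was 0.45. Slc7a5, a transporter of large neutral amino acids, stood at 147 and 151 CPM in WT, 51.0 and 64.3 CPM in AAB and 25.4 and 29.1 CPM in BBA (2.42). Stc2, a secreted glycoprotein, had 3.59, and Psat1 and Shmt2, of serine and one-carbon metabolism, had 1.80 and 1.71. Atf4, the factor itself, had 0.41 with an edgeR adjusted p of 0.013 and was not called. Of 13 tested genes of mitochondrial translation 1 was called, the elongation factor Tsfm (1.04), with a median of 0.18. Myc, a regulator of growth genes, stood at 384 and 441 CPM in WT, 141 and 171 CPM in AAB and 69.7 and 86.4 CPM in BBA (2.37). The STAT5 targets Cish and Socs2, both feedback inhibitors of cytokine signaling, had 3.43 and 2.44. These shares stand beside the 23.5% of all genes called in the same comparison. In Tcm NC none of the genes tested in these 4 lists was called in WT over BBA, with medians of 0.14 for tRNA processing, −0.02 for RNA polymerase III, 0.03 for the amino acid response and 0.02 for mitochondrial translation.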

How the data were processed

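RNA was measured in 69 libraries, of which 67 were grouped by their labels. Raw, unnormalized counts for each gene symbol were deposited by the authors. According to the study's methods they aligned reads to mm10, while the submitters' processing notes name mm9. Both name TopHat2, HTSeq and Cufflinks. Whether counting used strand is not given, and reads shared with pseudogenes or overlapping genes could be split. Rows that name no gene (67.6% of the counts in the retrovirus table, 0 in the others) stayed out. Depth was 6705004 to 34118295 counts on genes in the CD4+ and 11020965 to 16516525 in the retrovirus libraries. Precision at this depth was limited by the 2 or 3 libraries per group.

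Each condition was fitted with its 3 genotypes in edgeR 4.0.16 (R 4.3.3, limma 3.58.1), with TMM and the quasi-likelihood test, after a filter by the Jaccard index between replicates (best of 100 thresholds from 1 to 200 normalized counts, loess span 0.3, which gave 40.2 to 117). WT responses were fitted on the WT libraries of a cell state, and differences of genotype effects on the 12 libraries of 2 conditions. Levels were scaled by TMM over the genes past that filter (10538 for CD4+, 11545 for CD8+ and 10419 for retrovirus libraries), with CD4+ and CD8+ tables kept apart, and a pseudocount of 1 on the log2 scale. Exon lengths are merged exons of the GRCm38 annotation. All members could be named. Every library was given for up to 4 called cytosolic and 2 called mitochondrial members with the largest changes in each direction and a mean of at least 50 normalized counts in each main comparison, and for those that moved least or against the rest. Other members given by library were chosen after their values were seen. Up to 4 called genes per list were named, and context genes such as Myc and Cish. The members, the lists and these rules were chosen with earlier results of these data known.

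Counts of 10630 genes were simulated for WT over BBA in Tcm with IL-15, with 100 genes changed at each of 2 folds. The test recovered 73% of 1.75-fold and 98% of 3-fold changes, and 14 unchanged genes made up 7.57% of its calls. In the data 23.5% of all genes were called there, so these rates need not hold for the real comparison. Alternatives were no filter, filterByExpr, DESeq2 size factors, plain library totals, DESeq2 1.42.0, a replicate block, a single fit over a table, a pseudocount of 0.1, and leaving out each library. Same-numbered libraries deviated together over genes in every pair of genotypes in Tnv with IL-7 (r 0.13 to 0.32), Tcm NC (0.42 to 0.50), Tcm with IL-15 (0.33 to 0.42), Tem NC (0.31 to 0.48) and Tem with IL-15 (0.67 to 0.79), and in every pair of WT cell states (0.53 to 0.70), which was taken as pairing. WT Tem with IL-15 and NC gave r 0.45 from 2 pairs of libraries, too few to decide. In the other fits some r lay under 0.1. The 2 libraries of contradictory labels entered no comparison. Values of some single genes are not reported here.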

Additional observations from a re-analysis of the deposited data

Results flagged for a closer look

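The difference between WT and BBA was larger in Tcm with IL-15 than in Tcm NC, by a test of the difference over 12 libraries (edgeR's quasi-likelihood test, Benjamini-Hochberg adjusted p under 0.05), for 9 cytosolic genes. In log2 units it was 1.28 for Aimp2, 1.03 for Vars, 0.96 for Iars, 0.87 for Cars, 0.83 for Aars, 0.80 for Gars, 0.79 for Eprs, 0.71 for Mars and 0.69 for Kars. The same kind of test between cytokines, added after seeing the data, gave 1.65 for Wars in Tcm (IL-15 against IL-7) and 1.54 in Tnv.

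Nars2 stood at 49.4 CPM and 44.8 CPM in 2 CD4+ libraries, titled AAB and BBA, that entered no comparison. Both values lie above the 13.6 to 16.9 CPM of the WT CD4+ libraries without cytokine.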

How the results depend on the processing

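No gene called in a reported comparison reversed its direction there, and genes not called were not followed. Of 751 recalculated values of 63 gene results, 629 kept their side of the threshold and 122 lost it. Scaling moved the median of all genes of WT over BBA in Tcm with IL-15 by 0.24 (log2) without a filter, 0.21 with filterByExpr and −0.08 with plain totals, while the cytosolic median relative to all genes stayed at 0.71 to 0.72. The difference of cytosolic means there (WT minus BBA 0.76, WT minus AAB 0.38; mitochondrial 0.28 and 0.11) became 0.999 (mitochondrial 0.51) for BBA under TMM over every row, and with plain totals 0.66 and 0.32 for the cytosolic and 0.18 and 0.051 for the mitochondrial set. The 19 calls there stayed at 15 to 28.

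Counts of called members changed as follows, with the reported count in the report. Without a filter there were 23 for WT over BBA in Tnv and 4 in Tem with IL-15, 11 in Tcm with IL-7, 1 in Tem NC, 10 for AAB over BBA and 6 for WT over AAB in Tcm with IL-15, 1 for WT over AAB in Tnv with IL-7 and in CD4+ NC, 15 for the IL-15 against NC difference in Tcm, 14 for IL-15 over NC in BBA Tcm, 2, 1 and 1 for IL-15 over NC in WT Tnv, Tcm and Tem, 1 for IL-7 over NC in WT Tcm and 3 for active STAT5A. With filterByExpr there were 12 for WT over BBA in Tnv and 0 in Tem with IL-15, 8 for AAB over BBA and 4 for WT over AAB in Tcm with IL-15, and 13 for IL-15 over NC in BBA Tcm. With plain totals there were 1 for WT over BBA in Tcm with IL-7, 0 in Tem with IL-15, 1 each for AAB over BBA and WT over AAB in Tcm with IL-15, 2 for IL-15 over NC in BBA Tcm, 2 in WT Tcm (12 libraries) and 2 in WT Tnv. The cause of these shifts was not tested. DESeq2 gave 3, 7 and 7 for WT over BBA in Tnv with IL-15, Tcm with IL-7 and Tem with IL-15, and 1 each for WT over AAB in Tnv with IL-7, Tem with IL-15 and CD4+ NC, for IL-15 over NC in WT Tnv, Tcm and Tem, and for Tcm against Tnv with IL-15. A single fit gave 6, 11 and 8 for those 3 WT over BBA comparisons, 2 for WT over AAB in Tnv with IL-7 and 1 each for IL-15 over NC in WT Tcm and Tem.

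With a replicate block there were 14 for the IL-15 against NC difference in Tcm, 8 for WT over BBA in Tem with IL-15 1 for WT over AAB in Tnv with IL-7 and 3 each for WT over AAB and AAB over BBA in Tcm with IL-15, where the numbers pair the libraries. Where they share only a number, or where 2 pairs were too few to decide (WT Tem), there were 4 and 1 for WT over BBA in Tnv with IL-15 and Tcm with IL-7, 3 for AAB over BBA and 1 for WT over AAB in CD4+ cells with IL-7, 1 for WT over AAB in CD4+ NC, 2 for IL-15 over NC in WT Tem and 1 for Tcm against Tnv with IL-15. No paired analysis was possible for the retrovirus libraries because the label of 1 empty vector library gives no replicate number, so that the arms share only 1 number.

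Leaving out each library in turn gave 16 to 20 calls for WT over BBA in Tcm with IL-15. It gave 0 to 0 in Tnv with IL-7 and Tem with IL-15, 0 to 3 in Tnv with IL-15 and 0 to 9 in Tcm with IL-7. In Tcm with IL-15 it gave 0 to 1 for WT over AAB and AAB over BBA, 4 to 10 for the difference from NC, 1 to 3 for IL-15 over NC in WT (12 libraries), 2 to 4 in BBA and 0 to 0 in AAB. It gave 0 to 2 for WT over AAB in Tnv with IL-7, 0 to 1 for AAB over BBA in CD4+ cells with IL-7, 1 to 4 for IL-7 over NC in WT Tnv, 0 to 1 and 0 to 2 for IL-15 over NC in WT Tnv and Tem, 0 to 1 for Tem over Tcm, 0 to 1 for IL-15 against IL-7 in Tcm and Tnv, and 0 to 2 for active STAT5A. The cytosolic means differed by 0.72 to 0.81 (BBA) and 0.34 to 0.43 (AAB), the mitochondrial by 0.24 to 0.31 and 0.07 to 0.15. Depth limits what can be called in genes with few counts.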

Other observations

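The 2 CD4+ libraries whose title and treatment label contradict each other, titled AAB and BBA, held 116 and 96.7 CPM of Tars2, 54.8 and 60.6 CPM of Wars, 38.2 and 25.9 CPM of Ears2, and 180 and 158 CPM of Vars.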
